A study of Homo sapiens with 8 samples.

Results

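The guide arms of the miR-181 family, miR-181a-5p, miR-181b-5p, miR-181c-5p and miR-181d, were followed through 4 treatments of PC-3 cells. They were chosen by name and are 4 of the 1887 human miRNAs on the array. All 4 were detected on all 8 arrays, so all 4 passed the filter on low signals. PC-3 is an established cell line from a human prostate carcinoma that grows without androgen. The cells were kept for 24 h with DMSO alone, with 60 µM luteolin, with 60 µM gefitinib or with both drugs at 60 µM each, and the drugs were dissolved in DMSO, so that every group received the solvent. Luteolin is a flavonoid of plants, and gefitinib blocks the kinase of the epidermal growth factor receptor. Total RNA from each treatment was hybridised to 2 single-colour Agilent miRNA arrays. The labels call the 2 arrays biological replicates and the design text speaks of duplicate runs, so p-values measure only the spread between these arrays, which may be technical.

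A miRNA hairpin is cut into a duplex of 2 short strands. The strand that is kept in an Argonaute protein is the guide arm, and the other, the passenger arm, is mostly degraded. The guide finds messenger RNAs through bases 2 to 8 of its sequence, the seed, and lowers their translation and stability. Members of a family with 1 seed can therefore act on overlapping sets of messages. The miR-181 family is best known from lymphocytes, where miR-181a tunes the sensitivity of the T cell receptor, and it has been studied in many tumours.

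The mature sequences of the 4 guide arms are shown to make clear how little separates the members, with the seed in capitals (RefSeq, GRCh38.p14, 5′ to 3′).
hsa-miR-181a-5p: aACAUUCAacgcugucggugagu
hsa-miR-181b-5p: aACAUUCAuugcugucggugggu
hsa-miR-181c-5p: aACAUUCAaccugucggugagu
hsa-miR-181d: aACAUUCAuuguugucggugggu
The seed ACAUUCA pairs with UGAAUGU in a message. It was found in 5 of 2370 mature miRNA names of the RefSeq table, the 4 guide arms and miR-4262, and all 9 names of family arms and of miR-4262 on the array were matched in that table. Counted from 1 at the 5′ end of miR-181a-5p, miR-181b-5p carries A9U, C10U and A21G, and 20 of 23 aligned bases are identical. miR-181c-5p differs from miR-181a-5p by the deletion G11del alone. miR-181d differs from miR-181b-5p by C12U alone, with 22 of 23 bases identical. The probe sequences of the array were not used here, and how far its probes separate members that differ by 1 base was not tested.

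The members come from 3 clusters (RefSeq positions, GRCh38.p14). miR-181a-5p is encoded by MIR181A1 at chr1:198859108-198859130 on the minus strand and by MIR181A2 at chr9:124692480-124692502 on the plus strand. miR-181b-5p is encoded beside it both times, by MIR181B1 at chr1:198858925-198858947 and by MIR181B2 at chr9:124693725-124693747. The chromosome 1 pair, with 160 bases between the guide arms, lies within the annotated span of the host gene MIR181A1HG. The chromosome 9 pair, with 1222 bases between, lies within the spans of MIR181A2HG and NR6A1. miR-181c-5p at chr19:13874725-13874746 and miR-181d at chr19:13874910-13874932 are 163 bases apart on the plus strand, within the annotated span of NANOS3. An array signal for miR-181a-5p or miR-181b-5p sums over both of its loci.

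The 8 arrays shared 1 slide and 1 scan. Between 395 and 481 miRNAs were detected per array, and replicate arrays correlated with r between 0.973 and 0.997 over the 365 miRNAs detected on all arrays. The lowest number detected was on replicate 2 of luteolin plus gefitinib. Over the same 365 miRNAs, the log2 differences between replicates 1 and 2 correlated at 0.91 between DMSO and luteolin. Those of the both-drug arrays correlated at 0.41 with DMSO and 0.46 with luteolin. The gefitinib differences correlated with the other groups at -0.13 to 0.065. Signals are total gene signals of the scanner software, an intensity in arbitrary units, scaled to the 75th percentile of each array. Every miRNA had 30 spots per array. For each guide arm 240 of 240 spots over the 8 arrays were well above background and 0 were saturated, and the scanner software's own error was 7.34% to 8.68% of the signal. A signal refers to a fixed amount of labelled RNA, and a change per cell cannot be told apart from a change in the total RNA of the cell. Levels are compared between arrays for 1 miRNA only, since signals of different probes share no scale.

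miR-181a-5p had scaled signals of 36.4 and 37.1 on the DMSO arrays, 43.3 and 42.1 with luteolin, 34.0 and 33.8 with gefitinib, and 40.0 and 37.7 with both drugs. The order from low to high was gefitinib, DMSO, both drugs, luteolin, and no neighbouring groups overlapped. Such a full separation of the 4 groups was seen in 26 of 365 miRNAs detected on all arrays, or 7.12%. The full separation returned in 2 of 6 other scalings or summaries of the arrays, both of them means of spot signals, and the order alone in 4 of 6. In the remaining 2, without scaling and with a percentile over all miRNAs, DMSO was lowest.

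miR-181b-5p had signals of 16.9 and 20.6 with DMSO, 15.97 and 17.1 with luteolin, 12.7 and 12.7 with gefitinib, and 15.0 and 17.9 with both drugs. The gefitinib arrays were below the other 6 arrays, and the other 3 groups overlapped one another. How many of all miRNAs share that position was not counted. Against DMSO alone, 36.0% of miRNAs tested had both gefitinib arrays below both DMSO arrays. Gefitinib had the lowest mean in 6 of 6 other scalings or summaries and lay below all other arrays in 5 of them, the exception being the unscaled signals, where a both-drug array was lower.

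miR-181c-5p had signals of 16.03 and 19.1 with DMSO, 17.4 and 19.4 with luteolin, 14.7 and 17.3 with gefitinib, and 15.1 and 16.6 with both drugs. Every neighbouring pair in the order from both drugs through gefitinib and DMSO to luteolin overlapped.

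miR-181d had signals of 20.8 and 29.1 with DMSO, 23.5 and 26.5 with luteolin, 19.2 and 21.3 with gefitinib, and 19.3 and 24.9 with both drugs. Again no neighbouring pair was apart, and the DMSO arrays alone differed by 0.48 on the log2 scale. Replicate 1 was below replicate 2 in all 4 groups for miR-181d, by -0.14 to -0.48, and for miR-181c-5p, by -0.14 to -0.25. miR-181a-5p and miR-181b-5p had no common sign over the groups. The overlap of groups takes no account of such a shift between replicates.

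**Figure D1:**
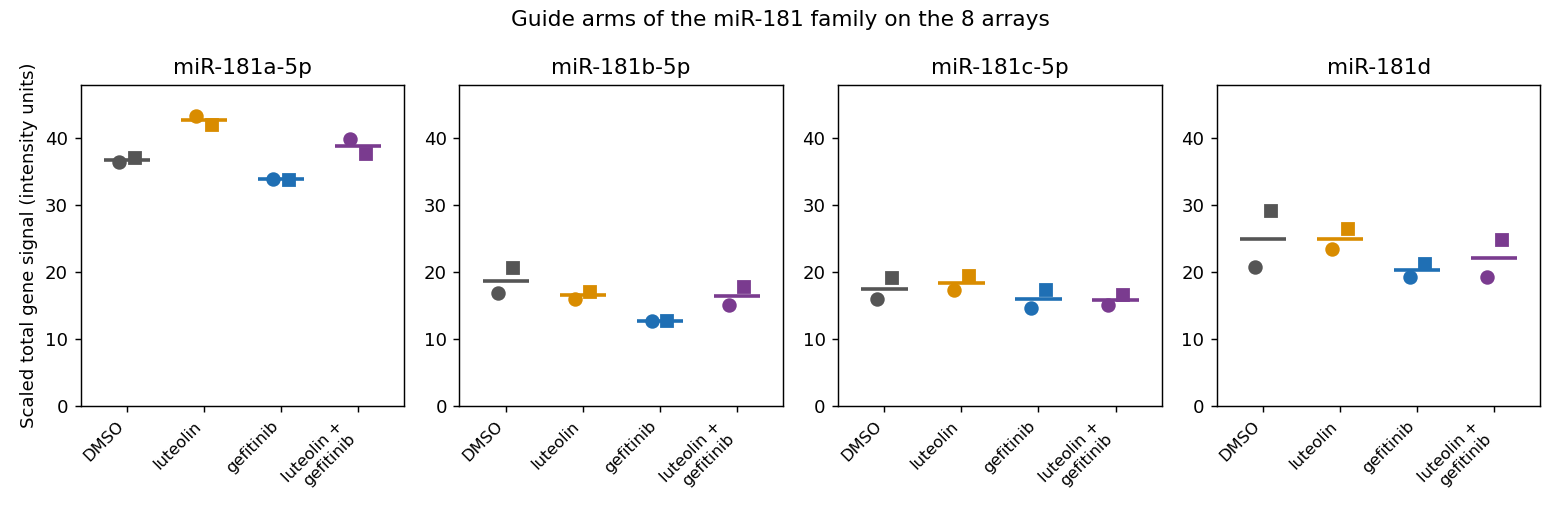
Scaled total gene signal (intensity units, axis from 0) of each guide arm on the 8 arrays, with circles for replicate 1, squares for replicate 2 and a line at the mean of each group. miR-181a-5p runs from 33.8 to 43.3 with its groups apart, and for miR-181b-5p both gefitinib arrays, at 12.7, are the lowest.

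All 4 guide arms had a smaller range over the arrays than the median miRNA. The highest signal of miR-181a-5p over the 8 arrays was 1.28 times the lowest, a log2 range of 0.36, and 3.84% of the 365 miRNAs detected on all arrays had a smaller range. miR-181c-5p spanned 1.32-fold, with a smaller range in 6.30% of miRNAs. The ranges of miR-181d, 1.51-fold, and of miR-181b-5p, 1.62-fold, had 29.6% and 37.8% of miRNAs below them. The median range over those miRNAs was 0.78 on the log2 scale. The guide arms were not compared with miRNAs of like signal alone, so a small range is not shown to be particular to the family.

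**Figure D2:**
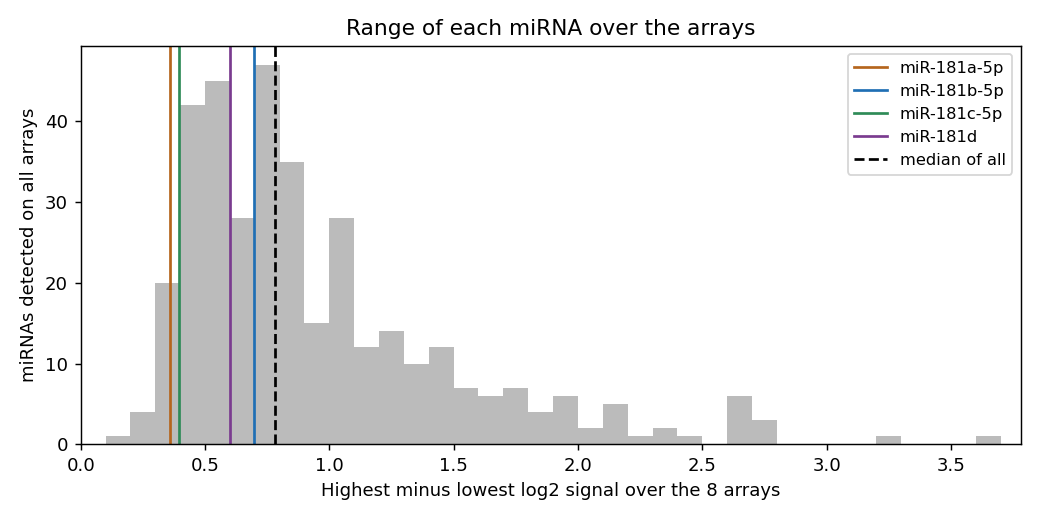
Number of miRNAs detected on all 8 arrays (vertical axis) by the difference between their highest and lowest log2 signal (horizontal axis), with a line for each guide arm and a dashed line at the median of 0.78. The 4 guide arms lie between 0.36 and 0.70, to the left of the median.

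No guide arm passed the test against DMSO. The comparison asked whether either drug, or both together, changed the level of a member. With luteolin, 0 of 4 guide arms were called at an adjusted p under 0.05 (limma, Benjamini-Hochberg over 480 miRNAs), beside 2.08% of all miRNAs tested, and 0 of 4 had an unadjusted p under 0.05, beside 8.54%. miR-181a-5p was 1.16-fold higher on the arrays (log2 fold change 0.22, SE 0.12, 95% interval -0.082 to 0.51, limma adjusted p = 0.723), with both luteolin arrays above both DMSO arrays, as for 9.17% of miRNAs tested. The changes of the other 3 arms were -0.18 for miR-181b-5p, 0.069 for miR-181c-5p and 0.018 for miR-181d on the log2 scale, and their groups overlapped. With 1 array left out at a time, miR-181b-5p ran from -0.32 to -0.030. The 4 arms had a median change of 0.043, and all 480 miRNAs one of -0.10.

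With gefitinib, 0 of 4 guide arms were called (limma), beside 12.1% of miRNAs tested, and miR-181b-5p alone had an unadjusted p under 0.05, as did 23.8% of miRNAs. Its signal was 1.46-fold lower on the gefitinib arrays (log2 fold change -0.55, SE 0.16, 95% interval -0.96 to -0.14, limma adjusted p = 0.0979). Both gefitinib arrays were below both DMSO arrays for miR-181b-5p and for miR-181a-5p, a position that 36.0% of miRNAs tested shared. miR-181a-5p differed by -0.12 on the log2 scale (limma adjusted p = 0.642), miR-181c-5p by -0.13 (adjusted p = 0.711) and miR-181d by -0.28 (adjusted p = 0.546). With 1 array left out at a time, miR-181c-5p ran from -0.26 to -0.0069 and miR-181d from -0.53 to -0.042. The median of the 4 arms was -0.21, against -0.10 for all miRNAs. Without scaling between arrays miR-181a-5p, miR-181c-5p and miR-181d were higher, not lower, with gefitinib, by 0.25, 0.23 and 0.082, while miR-181b-5p was still lower at -0.18.

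With both drugs, 0 of 4 guide arms were called (limma) and 0 had an unadjusted p under 0.05, beside 12.1% and 25.8% of miRNAs. The log2 differences from DMSO were 0.079 for miR-181a-5p (95% interval -0.22 to 0.38), -0.19 for miR-181b-5p (-0.60 to 0.22), -0.14 for miR-181c-5p (-0.56 to 0.27) and -0.17 for miR-181d (-0.73 to 0.39). Only miR-181a-5p had both arrays on 1 side of the DMSO arrays. They were above, as for 19.6% of miRNAs tested, a share that leaves out miRNAs with both arrays below. Matched by replicate number, miR-181b-5p, miR-181c-5p and miR-181d were lower with both drugs than with DMSO in each replicate. How many miRNAs share that position was not counted. Leaving out 1 array at a time moved miR-181b-5p between -0.33 and -0.042. The family median of -0.16 equalled that of all 480 miRNAs to 2 decimals. With a percentile taken over all miRNAs, the signs for miR-181b-5p, miR-181c-5p and miR-181d turned, to 0.28, 0.32 and 0.30. The 3 comparisons share the DMSO arrays.

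**Figure D3:**
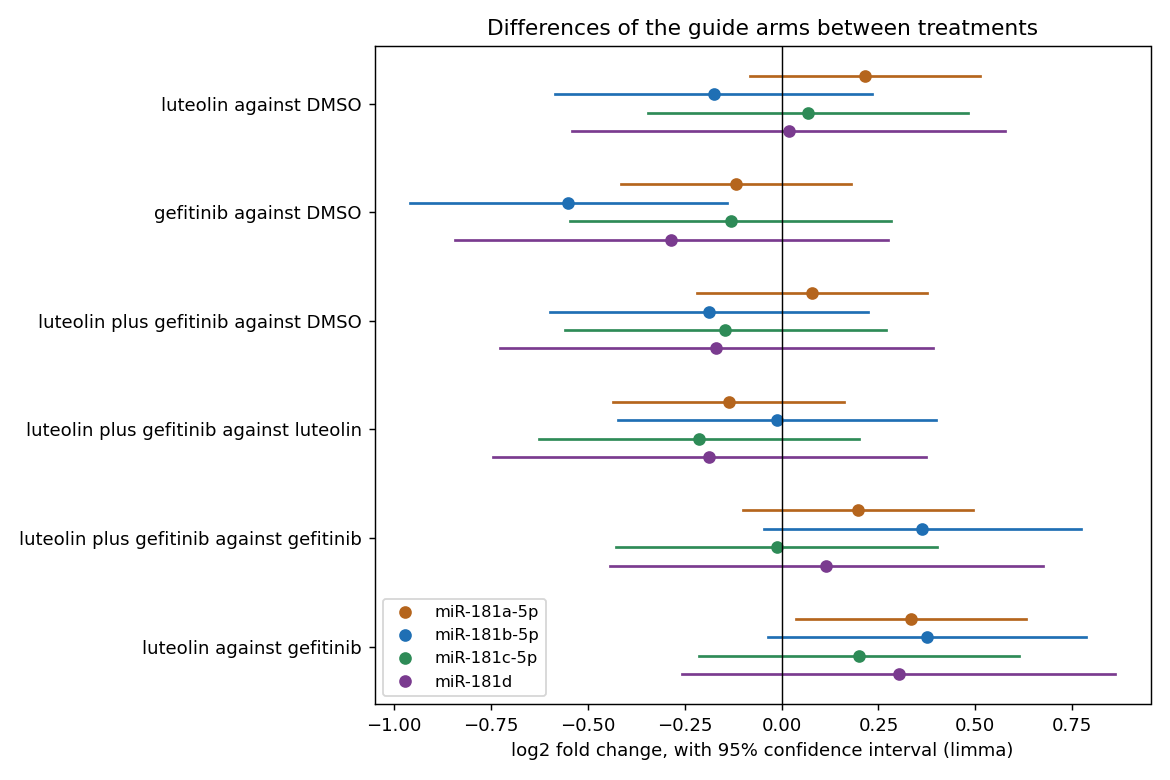
Log2 fold change of each guide arm (points) with its 95% confidence interval from limma (lines) in 6 comparisons of treatments, with a vertical line at no change. The interval of miR-181b-5p with gefitinib, -0.96 to -0.14, and that of miR-181a-5p between luteolin and gefitinib, 0.036 to 0.63, are the 2 that leave out 0, and neither passed the adjusted test.

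The addition of 1 drug to the other was also compared. Adding gefitinib to luteolin gave 0 of 4 calls (limma; 0 at an unadjusted p under 0.05), beside 1.88% and 15.4% of miRNAs, and all 4 arms had negative differences, from -0.21 for miR-181c-5p to -0.012 for miR-181b-5p. The arrays with both drugs were below the luteolin arrays for miR-181a-5p and miR-181c-5p, as for 17.9% of miRNAs. Adding luteolin to gefitinib likewise gave 0 of 4 calls (0 unadjusted), beside 4.58% and 12.5% of miRNAs. Here miR-181b-5p was 1.29-fold higher (log2 fold change 0.36, 95% interval -0.047 to 0.77, limma adjusted p = 0.478) and miR-181a-5p 1.15-fold higher (0.20, adjusted p = 0.680), each with both arrays above, as for 18.8% of miRNAs. The interaction, the effect of both drugs minus the sum of the single effects on the log2 scale, was 0.54 for miR-181b-5p (95% interval -0.041 to 1.12, limma adjusted p = 0.534) and between -0.082 and 0.097 for the other 3 arms, and 0 of 4 were called (0 unadjusted), beside 3.33% and 10.2% of miRNAs.

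The single drugs were also set directly against each other, and no guide arm passed the test. On the scaled signal all 4 guide arms were higher on both luteolin arrays than on both gefitinib arrays. That position was held by 19.0% of miRNAs tested. For miR-181c-5p it rested on 17.36 with luteolin (replicate 1) against 17.31 with gefitinib (replicate 2), a gap far below the scanner error. This contrast was added after the values were seen. The log2 differences were 0.33 for miR-181a-5p (95% interval 0.036 to 0.63, limma adjusted p = 0.239), 0.37 for miR-181b-5p (adjusted p = 0.364), 0.20 for miR-181c-5p (adjusted p = 0.713) and 0.30 for miR-181d (adjusted p = 0.649). The members' median was 0.32, and the median over the 365 miRNAs detected on all arrays was 0.033. By limma 0 of 4 arms were called, 1 of them with an unadjusted p under 0.05 (miR-181a-5p), beside 5.00% of miRNAs called and 16.7% with an unadjusted p under 0.05. For miR-181a-5p the limma adjusted p was 0.0209 with normexp background correction and quantile normalization, a setting that called 7.92% of miRNAs in this contrast, and 0.0292 on log2 of the signal plus 16, which called 7.50%, within a range of 0.0209 to 0.912 over 21 alternatives. Without scaling the difference for miR-181c-5p was -0.013 and those of the other 3 arms stayed above 0.

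By the Student's t-test that the methods name, run on the same values, miR-181a-5p was the only guide arm under the usual threshold. It was under that threshold for luteolin against DMSO, for gefitinib against DMSO and for both drugs against gefitinib, where 5.42%, 24.6% and 17.9% of all 480 miRNAs were as well. After Benjamini-Hochberg adjustment 0 of 4 arms passed in each of the 5 pairwise comparisons so tested. Of all 480 miRNAs, 0 passed with luteolin, 39 with gefitinib and 13 with both drugs against DMSO. Between both drugs and luteolin 1 passed, and between both drugs and gefitinib 19.

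Differences between members on the same array do not depend on a constant scaling factor for each array, though they can shift under quantile normalization. miR-181b-5p minus miR-181a-5p, set against the mean of the same difference with DMSO, was -0.46 and -0.32 with luteolin and -0.44 and -0.43 with gefitinib, while the DMSO arrays were at -0.13 and 0.13. The arrays of either single drug were thus below the DMSO arrays, and those with both drugs, at -0.43 and -0.099, overlapped them. miR-181c-5p minus miR-181b-5p was higher with luteolin (0.21 and 0.27) and with gefitinib (0.30 and 0.54) than with DMSO (0.020 and -0.020), and again the arrays with both drugs overlapped. miR-181d minus miR-181b-5p was higher as well, at 0.15 and 0.23 with luteolin and 0.19 and 0.34 with gefitinib, against -0.098 and 0.098. miR-181c-5p minus miR-181a-5p overlapped DMSO (-0.11 and 0.11) with either single drug and was just below it with both drugs, at -0.33 and -0.11. miR-181d minus miR-181a-5p overlapped DMSO (-0.23 and 0.23) in every drug group. Its means were -0.20 with luteolin, -0.17 with gefitinib and -0.25 with both drugs.

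On this scale all 3 other guide arms were therefore higher relative to miR-181b-5p with each single drug than with DMSO. The 3 differences share miR-181b-5p and are not separate observations, and the planned reference arm was miR-181a-5p. Among the 364 other miRNAs detected on all arrays, 23.6% were likewise higher relative to miR-181b-5p with luteolin, 71.2% with gefitinib and 21.4% with both of the single drugs. miR-181c-5p and miR-181d, which share a cluster, did not separate in this way: with luteolin and with both drugs their arrays overlapped DMSO, and with gefitinib the values of -0.11 and -0.20 overlapped the DMSO values of -0.12 and 0.12. Under quantile normalization miR-181c-5p minus miR-181b-5p was still above DMSO with both single drugs, and miR-181b-5p minus miR-181a-5p below it with gefitinib, but the latter overlapped DMSO with luteolin and miR-181d minus miR-181b-5p overlapped it with either drug and was below it with both drugs together (mean -0.16). The miR-181d and miR-181c-5p difference was then below DMSO with gefitinib. These are descriptions of 2 arrays a group, and an exact test of 2 against 2 cannot give a two-sided p under 0.333.

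**Figure D4:**
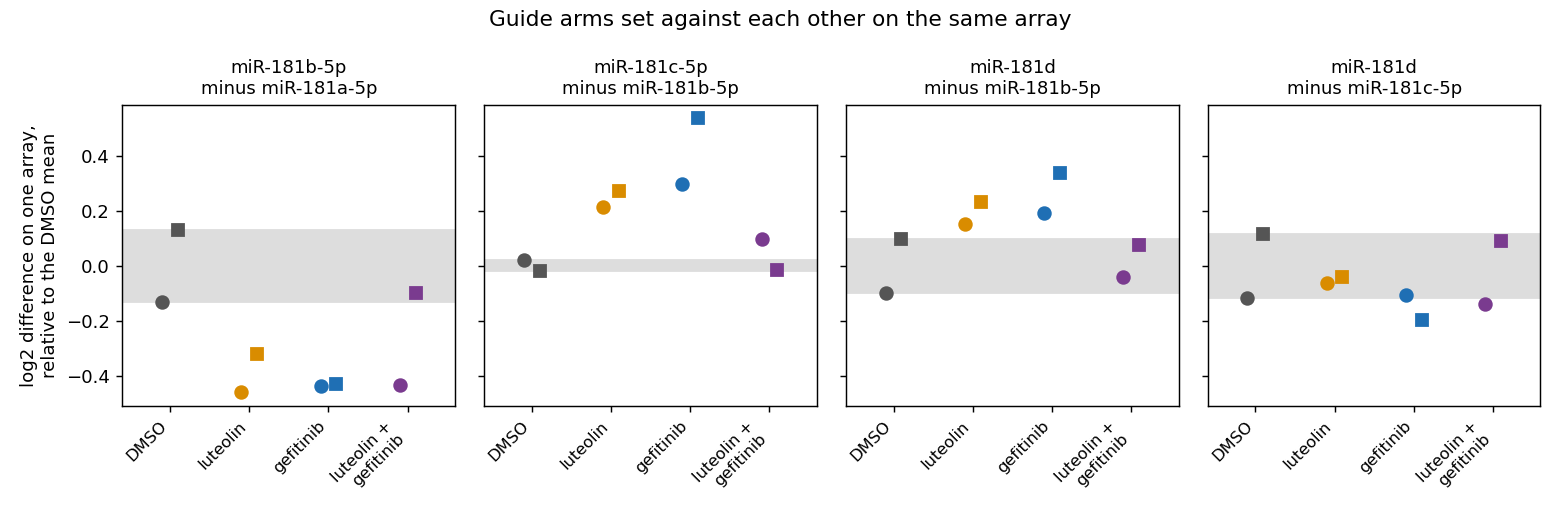
Log2 difference between 2 guide arms on the same array, relative to the mean of that difference on the DMSO arrays (vertical axis), by treatment, with circles for replicate 1, squares for replicate 2 and the DMSO range shaded. In the first 3 panels both arrays of each single drug lie outside the DMSO range, and in the last panel the groups overlap.

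The 2 probe designs of each guide arm gave similar changes. Of 12 pairs of changes from DMSO (4 arms, 3 drug groups), 11 had the same sign in both probes and the largest gap was 0.16 on the log2 scale. For miR-181b-5p with gefitinib the probes gave -0.51 and -0.57. miR-181d with luteolin was the exception, at -0.060 and 0.071.

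Among the members, miR-181c-5p and miR-181d had the closest profiles over the 8 arrays, with a root mean square difference of 0.10 between their centred log2 signals. miR-181b-5p and miR-181d followed at 0.13, and the widest difference, 0.20, was between miR-181a-5p and miR-181b-5p, which share clusters on chromosomes 1 and 9. Other miRNAs were nearer still. The profile nearest to miR-181a-5p among 364 miRNAs was that of miR-4530 (0.080), followed by miR-30d-5p (0.094) and miR-99b-5p (0.098). For miR-181b-5p the nearest were miR-4454 (0.070), miR-92a-3p (0.091) and miR-720 (0.094). For miR-181c-5p they were miR-106b-5p (0.054), miR-664a-3p (0.055) and miR-31-5p (0.061), and for miR-181d miR-197-3p (0.092), miR-29a-5p (0.092) and miR-106b-5p (0.093). The median difference of a guide arm from all candidates was 0.27 to 0.30. A small range over the arrays alone brings profiles close, and nothing is read from the likeness.

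The passenger arms were detected on fewer arrays than the guides. Of the 4 on the array, miR-181a-2-3p and miR-181b-3p were detected on 0 of 8 arrays, as was miR-4262, the other miRNA with the family seed. miR-181c-3p was detected on 7 of 8 and miR-181a-3p on 3 of 8, both DMSO arrays and replicate 1 of gefitinib. The hairpins of miR-181a are shown because both release the same guide arm but different passenger arms, and the capitals mark the guide (first) and the passenger arm (second).
MIR181A1, chr1:198859044-198859153, minus strand: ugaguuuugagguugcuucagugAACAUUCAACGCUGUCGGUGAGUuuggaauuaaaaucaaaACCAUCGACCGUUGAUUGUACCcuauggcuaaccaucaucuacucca
MIR181A2, chr9:124692442-124692551, plus strand: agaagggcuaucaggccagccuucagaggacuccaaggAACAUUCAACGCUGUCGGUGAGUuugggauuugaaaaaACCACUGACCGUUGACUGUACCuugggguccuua
Counted from the 5′ end of miR-181a-3p, the passenger arm of MIR181A1, miR-181a-2-3p carries U5C, C6U and U16C.

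miR-181a-3p, the passenger arm from the chromosome 1 hairpin, had its highest signals with DMSO. Its scaled total signal was 3.65 and 3.97 there and 1.14 on the 1 gefitinib array that detected it. It entered the test of 480 miRNAs through the DMSO arrays alone, so that a lower value with a drug was the only direction it could show, and its p-values there are not given. In the fit of all 1887 miRNAs without that filter, the log2 differences from DMSO, with undetected arrays at the floor, were -2.64 with luteolin (limma adjusted p = 0.232), -2.19 with gefitinib (adjusted p = 0.123) and -2.64 with both drugs (adjusted p = 0.0774), and none passed. That fit called 5 of the 1887 miRNAs with luteolin, 18 with gefitinib and 12 with both drugs. The size of the differences of miR-181a-3p is set by the floor.

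The spots behind these values have a reading on every array, but few of them were flagged by the scanner software as well above background. Of the 30 spots, 8 and 6 carried that flag on the DMSO arrays, 1 on replicate 2 of gefitinib and 0 on each of the other 5 drug arrays, replicate 1 of gefitinib among them. Their mean processed signal, scaled like the totals, was 6.35 and 6.94 with DMSO, 2.80 and 2.42 with luteolin, 3.55 and 2.76 with gefitinib, and 2.60 and 1.42 with both drugs. All 6 drug arrays were below both DMSO arrays, a description only, since detection with DMSO had selected this arm, and no fold is given because the drug arrays were not well above background. The 95th percentile of the same measure over 1365 miRNAs detected nowhere was between 1.04 and 1.59 on the 8 arrays. The guide arm of the same hairpin, miR-181a-5p, had spot means of 63.2 and 64.9 with DMSO, 76.3 and 73.6 with luteolin, 59.6 and 59.6 with gefitinib, and 71.1 and 67.6 with both drugs.

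**Figure D5:**
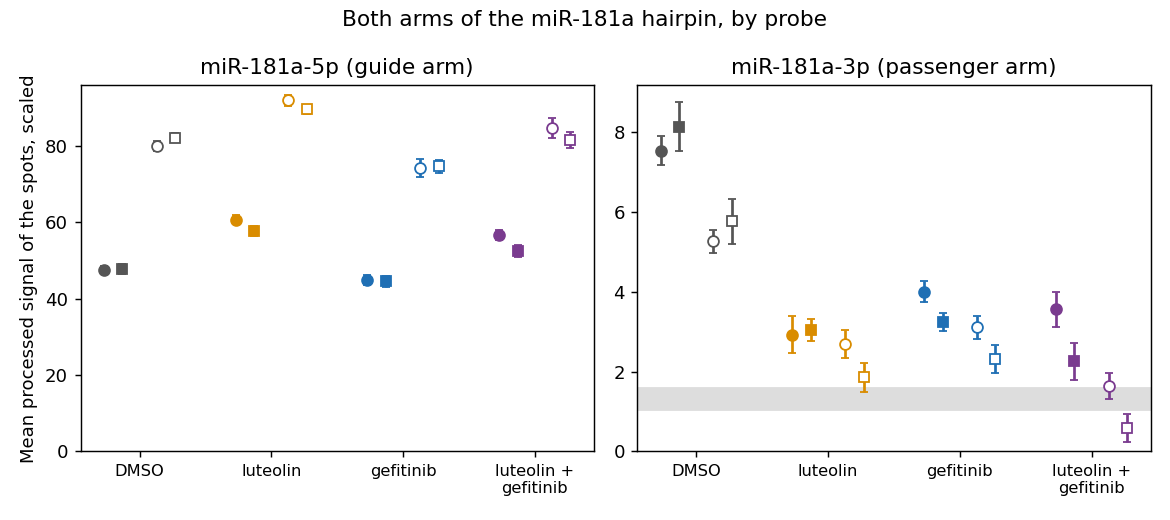
Mean processed signal of the spots (scaled, axes from 0, bars for the standard error over spots) of each of the 2 probes (filled and open) of miR-181a-5p and miR-181a-3p by treatment, with circles for replicate 1, squares for replicate 2 and, for the passenger arm, a band at the 95th percentile of undetected miRNAs, 1.04 to 1.59. Both probes of miR-181a-3p are lower on all 6 drug arrays than on the DMSO arrays, and with both drugs the second probe lies at 1.64 and 0.590, just above and below the band.

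miR-181c-3p, the passenger arm beside miR-181c-5p, had signals of 1.79 and 2.39 with DMSO, 1.88 and 1.72 with luteolin, and 1.68 and 1.93 with gefitinib, and these groups overlapped. With both drugs it was detected on replicate 1 alone, at 1.31. Because it entered the test of 480 miRNAs through the other groups, its p-values there are not given. In the fit of all 1887 miRNAs its log2 difference between both drugs and DMSO, with the undetected array at the floor, was -1.21 (limma adjusted p = 0.792). It did not pass, and 12 of the 1887 miRNAs were called there. With 1 array left out at a time the difference ran from -1.76 to -0.66, and its size depends on the floor.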

How the data were processed

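The authors labelled total RNA with Cy3 and extracted each array with Agilent Feature Extraction 10.7.3.1, per the file headers. The deposited values are intensity on a linear scale, background-subtracted and not normalized between arrays. The software sums the spots of a miRNA to a total gene signal, and sets an undetected one to a constant. The deposited series table holds the same spot intensities, within 0.5% for 100% of spots. The total gene signal was divided by each array's 75th percentile over 365 miRNAs detected on all 8 arrays, rescaled by the geometric mean of the percentiles (60.5 to 92.7), raised to a floor of 0.609 and taken to log2. The 480 miRNAs that some group detected in full, on its 2 arrays, were fitted once for the 4 groups with limma 3.58.1 in R 4.3.3 (4 residual degrees of freedom, prior 1.66). p-values are two-sided, adjusted by Benjamini-Hochberg, with calls under 0.05. The number of arrays limits the precision. The fit was tested on simulated data. Sequences were aligned with Biopython. Groups came from the labels, and no array was left out.

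The 4 guide arms, the lists and the tests were chosen with earlier results of these data known. Named besides the guide arms were the other arms of their hairpins, array miRNAs with the same seed and, for each guide arm, the 3 miRNAs with the smallest root mean square difference of centred log2 signals. Each planned pairwise comparison had 22 alternatives, the interaction 20 and the added contrast of luteolin with gefitinib 21 (scaling, signal summary, background correction, filter, floor, samples in the fit, test, replicate block, each array left out).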

Additional observations from a re-analysis of the deposited data

Results flagged for a closer look

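For miR-181a-5p the arrays of the single drugs lay on opposite sides of DMSO on the scaled signal, though neither difference from DMSO passed the test. Both luteolin arrays were above and both gefitinib arrays below the DMSO arrays. Taken singly, these positions were held by 9.17% and 36.0% of miRNAs tested, and the share holding both was not counted. The difference between the luteolin effect and the gefitinib effect was 0.333 on the log2 scale (limma adjusted p = 0.239, not passed). The gefitinib side of this pattern turned to 0.25 without scaling and to 0.074 with a percentile over all miRNAs.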

How the results depend on the processing

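The count of guide arms called was 0 in each of the 6 planned comparisons under every alternative run, including each array left out, and the lowest adjusted p was 0.0621, for miR-181b-5p with gefitinib under the replicate block. Directions were less firm: of 604 values of guide arms under an alternative, the contrast of luteolin with gefitinib included, 567 kept their direction and their side of the threshold, 35 changed sign and 2 crossed the threshold, both for miR-181a-5p in that contrast. Those 2 settings, normexp with quantile normalization and log2 of the signal plus 16, called 38 and 36 of the 480 miRNAs there, against 24 in the reported fit. miR-181b-5p with gefitinib stayed negative under all 22 alternatives, between -0.69 and -0.18. Scaling shifted the median change of all miRNAs by up to 0.36 without scaling (gefitinib against DMSO), by 0.44 with a percentile over all miRNAs (both drugs against DMSO) and by -0.48 in the interaction without scaling.

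With a percentile over all miRNAs, the values that changed sign were 0.14 for miR-181b-5p and 0.11 for miR-181c-3p with luteolin, 0.074 for miR-181a-5p and 0.060 for miR-181c-5p with gefitinib, 0.28, 0.32 and 0.30 for miR-181b-5p, miR-181c-5p and miR-181d with both drugs, 0.019 and 0.14 for miR-181a-5p and miR-181b-5p between both drugs and luteolin, and 0.26 for miR-181c-5p between both drugs and gefitinib. Without scaling they were 0.25, 0.23, 0.082 and 0.17 for miR-181a-5p, miR-181c-5p, miR-181d and miR-181c-3p with gefitinib, -0.14 and -0.22 for miR-181a-5p and miR-181d between both drugs and gefitinib, -0.39 for the miR-181d interaction and -0.013 for miR-181c-5p between luteolin and gefitinib. Quantile normalization gave 0.16 for miR-181c-3p with luteolin and 0.063 for miR-181c-5p between both drugs and gefitinib, where normexp gave 0.017. The causes were not tested.

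Leaving out 1 array at a time gave ranges across 0 with luteolin for miR-181c-5p (-0.056 to 0.19), miR-181d (-0.22 to 0.26) and miR-181c-3p (-0.41 to 0.0061), with gefitinib for miR-181c-3p (-0.41 to 0.011) and with both drugs for miR-181d (-0.41 to 0.074). They also crossed 0 between both drugs and luteolin for miR-181b-5p (-0.14 to 0.11), between both drugs and gefitinib for miR-181c-5p (-0.13 to 0.10) and miR-181d (-0.067 to 0.30), and in the interaction for miR-181a-5p (-0.061 to 0.024), miR-181c-5p (-0.21 to 0.043) and miR-181d (-0.15 to 0.34).

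The calls over all miRNAs numbered 10 with luteolin (0 to 18 over the alternatives), 58 with gefitinib (14 to 70), 58 with both drugs (12 to 87), 9 between both drugs and luteolin (0 to 19), 22 between both drugs and gefitinib (7 to 41), 16 in the interaction (2 to 24) and 24 between luteolin and gefitinib (0 to 48). Replicates were not paired, though their differences correlated (0.41 to 0.91) among DMSO, luteolin and both drugs. With the replicate number as a block, 0 guide arms were called, miR-181b-5p with gefitinib stayed at -0.55 (adjusted p = 0.0621), and the calls between both drugs and luteolin went from 9 to 5. The methods' t-test and the fit to the compared groups alone were not run for the interaction. Quantile normalization, added for the differences between members on 1 array after seeing the data, changed which groups overlapped.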
